A study of Homo sapiens with 9 samples.

Results

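The HOX cluster genes were taken as every protein-coding gene of the expression table whose symbol, looked up from its Ensembl identifier, is HOX followed by a cluster letter (A, B, C or D) and a position number. The rule found 21 genes among the 22290 genes of the table. The GENCODE v44 annotation of GRCh38 holds 39 protein-coding HOX cluster genes in 4 clusters, and the other 18 are not analysed here. For those 18 genes neither an expressed nor a silent state can be stated.

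HOX genes encode homeodomain transcription factors that give cells their position along the head-to-tail axis of the embryo. Within each cluster the order of the genes on the chromosome follows the order of their expression domains, with low-numbered genes expressed in the hindbrain and neck and high-numbered genes in the lower trunk, tail and distal limbs. Many adult cells and tumour lines keep a stable combination of expressed HOX genes, a HOX code, which is held by Trithorax and Polycomb chromatin complexes and read by HOX proteins together with PBX and MEIS cofactors.

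RNA from 9 libraries had been sequenced, all labelled as the established human neuroblastoma line IMR-32. There were 3 libraries of parental cells (PAR, genotype label WT), 3 of cells with the genotype label TRAP-1 knockdown (KD) and 3 of cells with the genotype label TRAP-1 overexpression (OE). TRAP-1, the mitochondrial member of the HSP90 chaperone family, was the gene the study altered, and the question was how its level affects the cells. How many clones made up each engineered line is not given in the sources used here.

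The deposited values were log2 values from the rlog transformation of the authors. It corrects for sequencing depth and pulls the values of a gene together, most strongly where reads are few. A value is called a level below, and a difference of group means is called an rlog difference, which understates the change of weakly expressed genes. How deeply any library was sequenced cannot be read from such values. Groups were compared with limma using all 9 libraries. P-values were adjusted over the 22290 genes by the Benjamini-Hochberg method, and an adjusted p under 0.05 made a gene called. No further filter was applied, and all 21 HOX genes were tested. Nothing states that the 3 libraries of a group came from separate cultures, so the p-values measure only the spread between these libraries, which may be technical. In cell populations such as these, fewer cells expressing a gene and less RNA of it per cell cannot be told apart.

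TRAP1 itself had rlog levels of 10.67, 10.66 and 10.65 in PAR, 10.79, 10.79 and 10.83 in the libraries labelled KD and 10.67, 10.63 and 10.74 in those labelled OE. The 3 libraries labelled KD lay above all PAR libraries, and those labelled OE overlapped PAR. The rlog difference from PAR was 0.14 (standard error 0.025, adjusted p = 1.76e-05 from limma) for the libraries labelled KD and 0.018 (standard error 0.025, adjusted p = 6.43e-01 from limma) for those labelled OE. The direct rlog difference of the libraries labelled OE from those labelled KD was -0.12 (standard error 0.025, adjusted p = 1.47e-04 from limma). TRAP1 RNA thus went against the label of the KD libraries and was not shown to be raised in those labelled OE. KD and OE are therefore used here only as the names the libraries carry.

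The cell type label was checked against marker genes. Of 27 adrenergic neuroblastoma markers 18 had values, and 8 of these reached a mean rlog of 5 in PAR while 10 lay under it. Among the defining markers, ISL1 (9.37), GATA3 (7.25) and HAND2 (6.36), which are transcription factors of sympathetic neurons, were expressed in PAR. The oncogene MYCN had PAR levels of 2.54, 2.46 and 2.54 and did not pass 2.61 in any library. Tyrosine hydroxylase (TH), which makes the precursor of the catecholamines, had a mean of 2.84 in PAR, 2.66 in the libraries labelled KD and 2.69 in those labelled OE. DBH is not analysed here. The most abundant gene of the list was TFAP2B, a neural crest transcription factor, with a mean of 13.67 in PAR.

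All 12 mesenchymal neuroblastoma markers with values, of 14 listed, were above 5 in every group, led by the intermediate filament gene VIM with a mean of 15.72 in PAR. Of 23 epithelial markers 18 had values and 9 reached a mean of 5, led by the keratin gene KRT18 (12.06 in PAR). The defining epithelial genes EPCAM (2.59), ESRP1 (2.67) and GRHL2 (3.49) lay under 5 in PAR, and CDH1 is not analysed here. MYCN and TH were therefore low in cells labelled IMR-32 neuroblastoma, and the cells are named by their label.

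**Figure D1:**
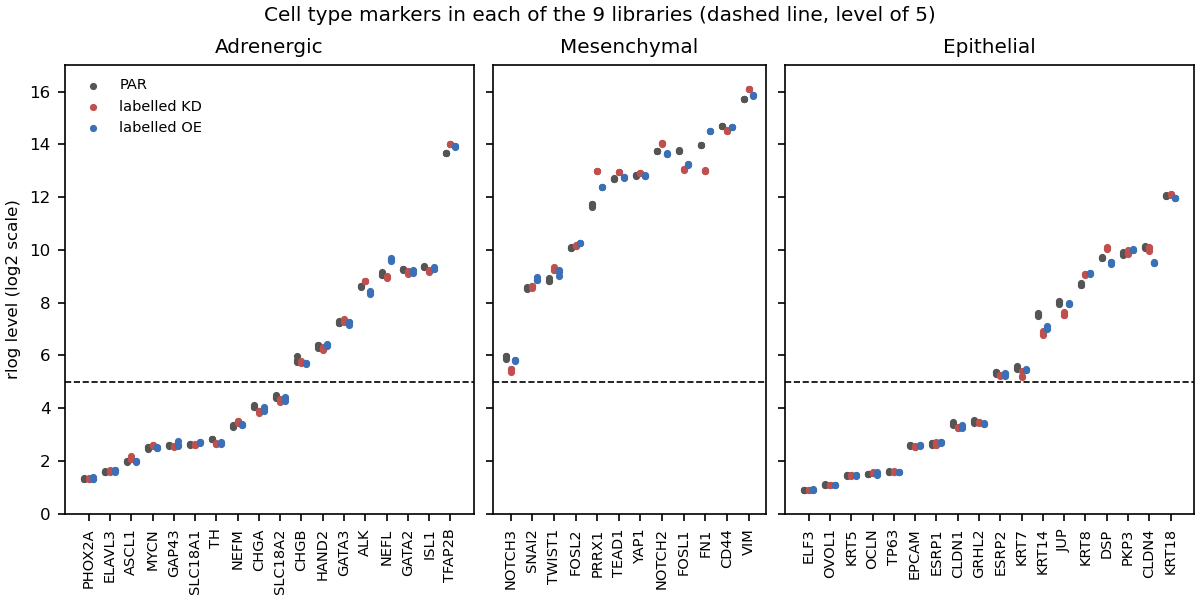
rlog level (log2 scale) of each adrenergic, mesenchymal and epithelial marker gene with a value in each of the 9 libraries, with points coloured by group and a dashed line at the level of 5. In the adrenergic panel 10 of 18 genes lie under the line, while the 12 mesenchymal markers lie above it.

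The summed level of the 18 adrenergic markers, taken back from the log2 scale, was 15510.5, 15572.5 and 15704.5 in PAR, 19133.9, 19032.9 and 19150.2 in the libraries labelled KD and 18034.3, 18445.5 and 18454.5 in those labelled OE. The 12 mesenchymal markers summed to 143461, 143506.3 and 143873.6 in PAR, 152926, 153489 and 152088.9 in the libraries labelled KD and 153561.5, 153217.3 and 154475.9 in those labelled OE. The 18 epithelial markers summed to 8120.6, 8179.8 and 8095.1 in PAR, 8281.1, 8508.3 and 8613.7 in the libraries labelled KD and 7554.8, 7539.5 and 7594.8 in those labelled OE. Adrenergic and mesenchymal sums were lowest in PAR, and the epithelial sum was lowest in the libraries labelled OE. TFAP2B alone made up 83.2% to 87.1% of the adrenergic sum, so this sum follows 1 gene. KRT18 made up 51.6% to 53.2% of the epithelial sum and VIM 37.4% to 45.6% of the mesenchymal one. For the adrenergic list the median rlog difference in KD was -0.026. In KD 5 adrenergic markers rose and 7 fell, 7 mesenchymal ones rose and 4 fell, and 3 epithelial ones rose and 4 fell. In OE the counts were 2 and 3, 7 and 3, and 2 and 5. Called markers were thus 66.7%, 91.7% and 38.9% of the 3 lists in KD and 27.8%, 83.3% and 38.9% in OE, against 53.7% and 34.8% of all 22290 genes. The mesenchymal markers were all at a level of 5 or more, where 71.7% of genes were called in KD and 50.3% in OE. The largest called adrenergic differences were those of TFAP2B (0.35), ALK (0.20), CHGA (-0.20) and TH (-0.18) in KD and NEFL (0.53), TFAP2B (0.26), ALK (-0.22) and CHGB (-0.18) in OE. Among mesenchymal markers they were PRRX1 (1.29), FN1 (-0.96), FOSL1 (-0.72) and NOTCH3 (-0.48) in KD and PRRX1 (0.69), FN1 (0.55), FOSL1 (-0.52) and SNAI2 (0.34) in OE. Among epithelial markers they were KRT14 (-0.70), JUP (-0.44), KRT8 (0.39) and DSP (0.37) in KD and CLDN4 (-0.57), KRT14 (-0.49), KRT8 (0.40) and DSP (-0.19) in OE. The part of these markers in the HOX results was not tested.

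With a mean rlog of at least 5 taken as expressed, 16 of the 21 HOX genes were expressed in PAR, 15 in the libraries labelled KD and 16 in those labelled OE. Of all 22290 genes, 14000 had a mean of at least 5 over the 9 libraries. The HOX count depends on the level chosen, with 12 expressed in each group at a level of 7. All 3 HOXB genes with values (HOXB2, HOXB7 and HOXB13) and all 5 HOXC genes (HOXC4, HOXC10, HOXC11, HOXC12 and HOXC13) were expressed in every group. In the HOXA cluster HOXA2, HOXA3 and HOXA13 were expressed in every group, HOXA7 and HOXA9 were not in any, and HOXA11 lay at the limit. In the HOXD cluster HOXD3, HOXD10 and HOXD13 were expressed, while HOXD1, HOXD11 and HOXD12 were under 5 in every library. The low-value step had been applied by the authors, who removed genes with a total count under 10, and the 21 genes are those that passed it and are in the table.

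**Figure D2:**
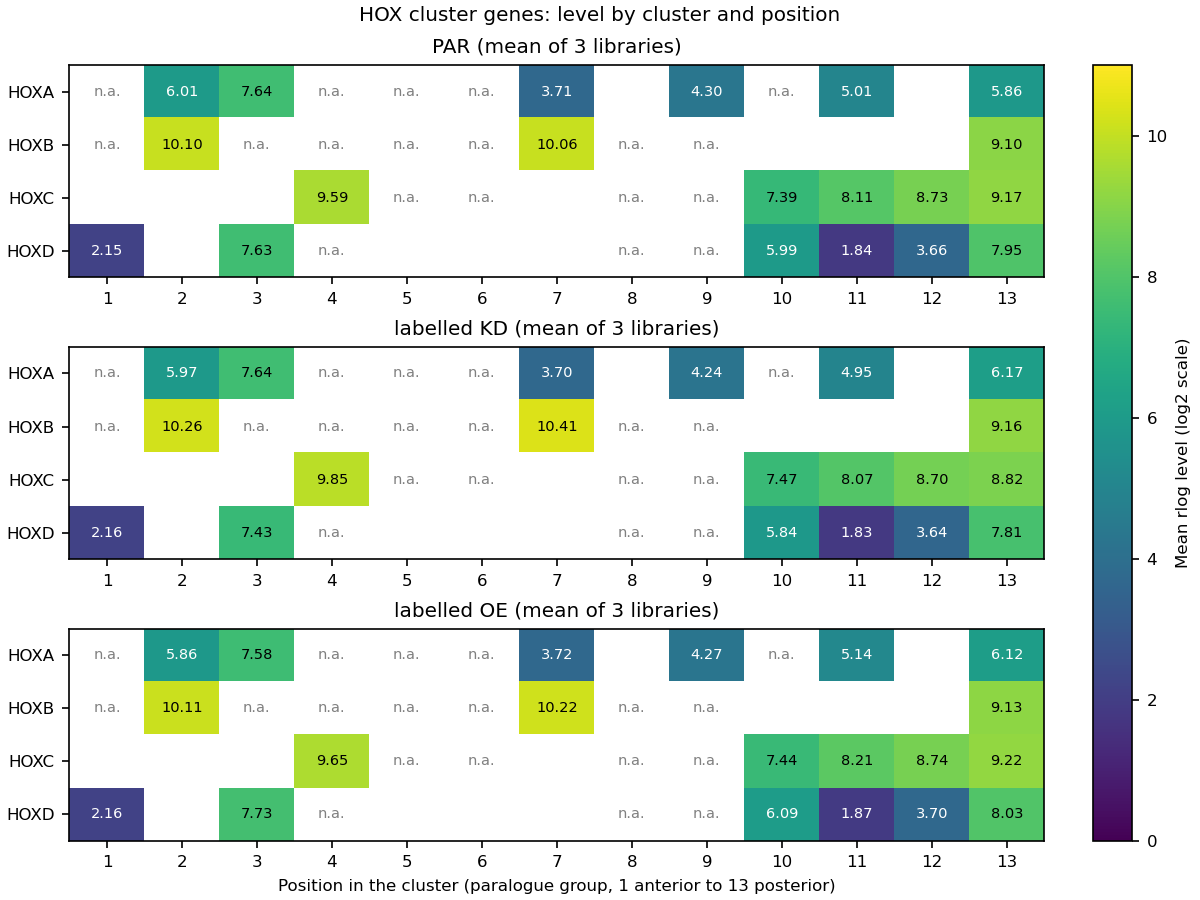
Mean rlog level (log2 scale, colour and printed number) of the HOX genes by cluster (rows) and position (columns), with 1 panel for each group of 3 libraries. Cells marked n.a. are annotated genes that are not analysed or not reported here, and blank cells hold no annotated gene. HOXB2 and HOXB7 have the highest levels in each panel and HOXD11 the lowest.

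By position, 5 of the 6 genes at positions 1 to 3 were expressed in PAR, 2 of the 3 at positions 4 to 8 and 9 of the 12 at positions 9 to 13. Expressed genes thus came from the anterior and the posterior end of the clusters alike. Of the 15 genes annotated at positions 4 to 8, 12 are not analysed here, so the middle of the code is known for HOXA7, HOXB7 and HOXC4 alone.

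Levels of different genes were compared after subtraction of the log2 of the exonic length in kilobases. On this scale of rlog level per kilobase the median of the HOX genes over all libraries was 5.71, against 5.38 for all genes. The PAR median was 8.80 for HOXB, 7.02 for HOXC, 3.59 for HOXA and 3.48 for HOXD. HOXB7 was highest (9.63 over all libraries), followed by HOXB2 (8.86), HOXC4 (8.23), HOXC13 (7.83) and HOXB13 (7.53). HOXC12 (7.02), HOXD13 (6.66), HOXC11 (6.42) and HOXC10 (6.19) came next. HOXD3 (5.71), HOXA3 (5.51), HOXA2 (4.72), HOXD10 (4.66), HOXA13 (3.71) and HOXA11 (3.62) followed. At the low end were HOXA9 (2.67), HOXA7 (2.44), HOXD12 (2.30), HOXD1 (1.24) and HOXD11 (0.77).

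**Figure D3:**
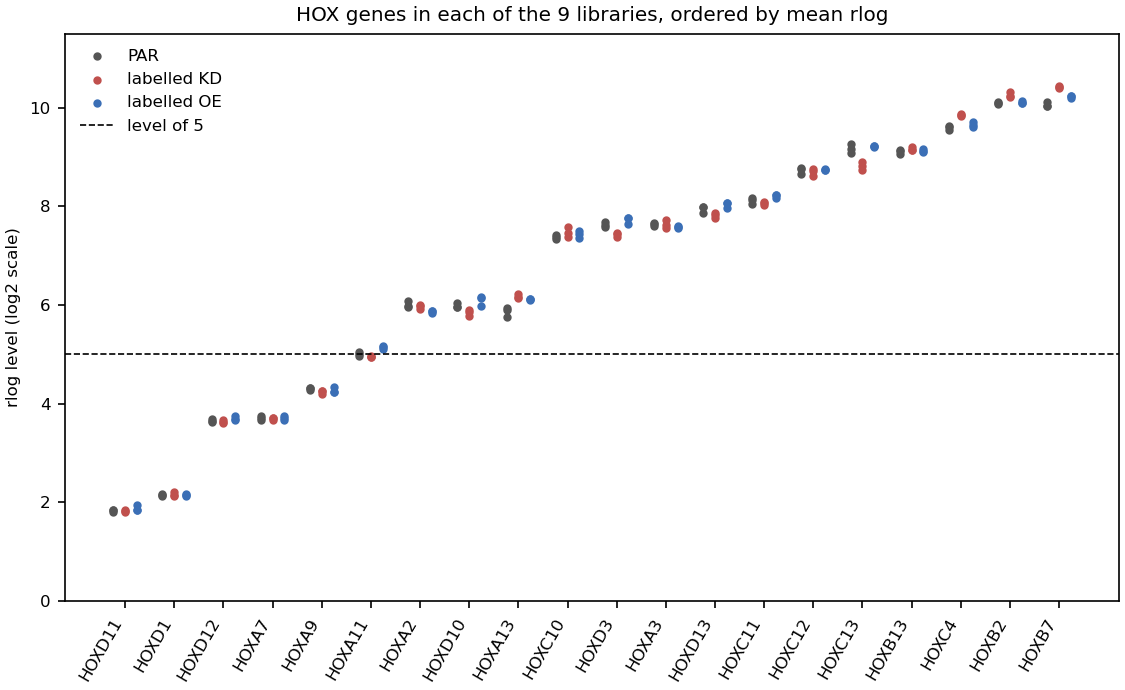
rlog level (log2 scale) of 20 HOX genes in each of the 9 libraries, ordered by mean level, with points coloured by group and a dashed line at the level of 5. The levels run from 1.85 for HOXD11 to 10.23 for HOXB7, and the libraries of 1 gene lie within 0.53 of each other.

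Promoter sequence is shown for those HOX genes that differed between the libraries labelled KD and PAR and have an entry in the RefSeq promoter table (GRCh38.p14), since these are the genes the comparisons turn on. Of the 21 genes 13 matched an entry, while HOXB2, HOXB7, HOXB13, HOXC10, HOXC11, HOXC12 and HOXC13 are only named. Each sequence is the 250 bases before the annotated start, written 5′ to 3′ on the strand of the gene, which is minus for HOXA13 and plus for the others. Capitals mark matches on either strand to the GC box GGGCGG, the CCAAT box CCAAT, the TATA box TATAAA and the PBX-HOX motif TGATTNAT. A pair of overlapping TATAAA matches on opposite strands lies in the HOXD13 sequence.
HOXA13 promoter, chr7:27200092-27200341: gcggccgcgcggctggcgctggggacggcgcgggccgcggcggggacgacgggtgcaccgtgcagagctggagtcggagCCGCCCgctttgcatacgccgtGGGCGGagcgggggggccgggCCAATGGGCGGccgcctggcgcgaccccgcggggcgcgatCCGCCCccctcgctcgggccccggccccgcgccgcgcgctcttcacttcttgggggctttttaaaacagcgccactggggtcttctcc
HOXC4 promoter, chr12:54016638-54016887: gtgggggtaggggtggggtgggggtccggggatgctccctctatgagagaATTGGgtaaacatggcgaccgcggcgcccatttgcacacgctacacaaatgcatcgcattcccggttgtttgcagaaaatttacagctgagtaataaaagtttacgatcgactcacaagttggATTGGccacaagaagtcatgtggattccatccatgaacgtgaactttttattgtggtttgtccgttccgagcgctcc
HOXD3 promoter, chr2:176157057-176157306: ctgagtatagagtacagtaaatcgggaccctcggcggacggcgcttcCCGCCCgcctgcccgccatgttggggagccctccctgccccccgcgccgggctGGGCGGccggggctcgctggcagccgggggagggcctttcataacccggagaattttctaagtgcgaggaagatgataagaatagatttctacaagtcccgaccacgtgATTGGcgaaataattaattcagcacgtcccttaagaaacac
HOXD10 promoter, chr2:176116528-176116777: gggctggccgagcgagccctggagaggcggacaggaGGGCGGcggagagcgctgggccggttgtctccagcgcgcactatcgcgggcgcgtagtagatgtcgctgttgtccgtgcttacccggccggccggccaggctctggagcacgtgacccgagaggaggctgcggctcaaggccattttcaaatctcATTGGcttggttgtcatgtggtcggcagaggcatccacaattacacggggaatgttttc
HOXD13 promoter, chr2:176092471-176092720: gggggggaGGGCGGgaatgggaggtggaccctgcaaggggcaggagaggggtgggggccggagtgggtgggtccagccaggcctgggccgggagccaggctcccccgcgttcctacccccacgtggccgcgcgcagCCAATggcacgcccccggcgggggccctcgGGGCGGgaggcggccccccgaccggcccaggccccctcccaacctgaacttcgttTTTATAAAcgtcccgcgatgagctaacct

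These letters are a description of the windows and not of bound sites. The 13 matched HOX genes have 19 entries in all, 7 of them of HOXA3, and shares are given by entry. The 5 sequences all hold CCAAT, as do 11 of the 19 HOX entries and 32% of the 35116 promoters of the table. Counted by gene, 11 of the 13 hold CCAAT, among them HOXA7, HOXA9, HOXD1 and HOXD12, which were not called in any comparison. GGGCGG is in 4 of the 5, all but HOXC4, in 11 of the 19 HOX entries and in 42.6% of all promoters. TATAAA is in HOXD13 among the 5, in 3 of the 19 HOX entries and in 10.7% of all promoters. TGATTNAT is in none of the 5, in 2 of the 19 HOX entries (HOXA2 and HOXD11) and in 2.48% of all promoters.

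The number of CG dinucleotides in the 250 bases was 40 for HOXA13, 14 for HOXC4, 21 for HOXD3, 23 for HOXD10 and 21 for HOXD13. Over the 12 HOX genes with 1 promoter entry, the median was 21 for the 7 expressed genes and 23 for the 5 under the level of 5, against 11 over all promoters. The ranges of these 7 and 5 genes were 8 to 40 and 16 to 31, and their difference was not tested. HOXA3 has 7 entries and was left out of these medians.

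The HOXB genes lie on chromosome 17 between 48528526 and 48728750 of GRCh38. HOXB7 (ENSG00000260027), a trunk gene from the middle of the cluster, had rlog levels of 10.03, 10.11 and 10.04 in PAR, 10.40, 10.41 and 10.43 in the libraries labelled KD and 10.24, 10.24 and 10.20 in those labelled OE. The 3 groups did not overlap, with PAR lowest and the libraries labelled KD highest. HOXB2, which acts in the hindbrain and in facial motor neurons, had levels of 10.11, 10.08 and 10.10 in PAR, 10.24, 10.21 and 10.33 in the libraries labelled KD and 10.10, 10.09 and 10.14 in those labelled OE. The libraries labelled KD were above the others, and those labelled OE overlapped PAR. HOXB13, a tail gene that is also a lineage factor of the prostate, ranged from 9.05 to 9.20 over the 9 libraries and was not called in any comparison.

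The HOXC genes lie on chromosome 12 between 53938831 and 54056030. HOXC4, the most anterior gene of this cluster and one of the neck and upper trunk, had levels of 9.55, 9.61 and 9.62 in PAR, 9.82, 9.87 and 9.86 in the libraries labelled KD and 9.64, 9.61 and 9.70 in those labelled OE. The libraries labelled KD lay above all others, and those labelled OE overlapped PAR. In the annotation 17.5% of the HOXC4 exons overlap exons of 2 other genes, so reads there could not be assigned to HOXC4 alone.

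HOXC13, the gene at the other end of the cluster and a regulator of hair and nail keratins, had levels of 9.26, 9.09 and 9.16 in PAR, 8.81, 8.73 and 8.90 in the libraries labelled KD and 9.21, 9.22 and 9.22 in those labelled OE. The libraries labelled KD lay under all others. HOXC11, a hindlimb and lower trunk gene, had levels of 8.12, 8.17 and 8.05 in PAR, 8.04, 8.07 and 8.10 in the libraries labelled KD and 8.18, 8.22 and 8.22 in those labelled OE. Here the libraries labelled OE lay above the other 6, which overlapped. HOXC10, known from lumbar motor neurons and the hindlimb, ranged over the 9 libraries from 7.34 to 7.57 and HOXC12 from 8.63 to 8.78, and neither was called in any comparison. HOXC10 was called between KD and PAR when KD replicate 2 was left out.

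The HOXA genes lie on chromosome 7. HOXA2, which sets the identity of neural crest in the pharyngeal arches, had levels of 5.96, 5.98 and 6.09 in PAR, 5.98, 5.92 and 5.99 in the libraries labelled KD and 5.84, 5.88 and 5.88 in those labelled OE. The libraries labelled OE lay under the other 6.

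HOXA13, which patterns the digits and the urogenital tract, had levels of 5.76, 5.89 and 5.94 in PAR, 6.16, 6.22 and 6.13 in the libraries labelled KD and 6.13, 6.13 and 6.10 in those labelled OE. All PAR libraries lay under the other 6. HOXA11, a gene of the forearm and the uterus, had levels of 5.05, 4.96 and 5.02 in PAR, 4.96, 4.94 and 4.95 in the libraries labelled KD and 5.18, 5.10 and 5.15 in those labelled OE. The libraries labelled OE were highest and those labelled KD lowest, without overlap with PAR. HOXA3, which patterns the pharyngeal arches, ranged from 7.56 to 7.73, the trunk gene HOXA7 from 3.67 to 3.75 and HOXA9, a regulator of blood stem cells, from 4.20 to 4.33. None of these last 3 was called in any comparison, and 62.5% of the exons of HOXA7 overlap an antisense gene.

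The HOXD genes lie on chromosome 2 between 176092721 and 176190907. HOXD13, which patterns the digits and had the highest level per kilobase of the cluster, had rlog levels of 7.99, 7.88 and 7.98 in PAR, 7.86, 7.82 and 7.76 in the libraries labelled KD and 8.06, 8.08 and 7.96 in those labelled OE. The libraries labelled KD lay under the other 6, which overlapped. HOXD3, a gene of the neck vertebrae, had levels of 7.63, 7.68 and 7.58 in PAR, 7.46, 7.38 and 7.43 in the libraries labelled KD and 7.78, 7.76 and 7.64 in those labelled OE. Again the libraries labelled KD lay under the other 6, and PAR and the libraries labelled OE overlapped.

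HOXD10, known from lumbar motor neurons, had levels of 5.97, 5.95 and 6.05 in PAR, 5.90, 5.86 and 5.78 in the libraries labelled KD and 5.98, 6.14 and 6.15 in those labelled OE. All 3 libraries labelled KD lay under the other 6, which overlapped. HOXD1, known from sensory neurons, ranged from 2.12 to 2.20, the forearm gene HOXD11 from 1.81 to 1.94 and HOXD12 from 3.62 to 3.75. These last 3 were not called in any comparison, at levels where rlog values are strongly shrunken. In the annotation HOXD10 (18.2%) and HOXD11 (21.4%) share part of their exons with 1 other gene each, and HOXD1 shares 60.1% with 3.

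The HOX code was compared between the groups by the state of each gene and by the spread of its level. Of the 21 genes, 20 were on the same side of a mean rlog of 5 in the 3 groups (95.2%), as were 98.7% of all 22290 genes. The exception was HOXA11, with means of 5.01 in PAR, 4.95 in the libraries labelled KD and 5.14 in those labelled OE, and without PAR replicate 1 its PAR mean fell under 5. The median SD of the group means of a gene was 0.072 and the median SD within a group was 0.042.

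Between the libraries labelled KD and PAR, 8 of the 21 HOX genes were called (38.1%), against 53.7% of all 22290 genes. HOXA13, HOXB2, HOXB7 and HOXC4 rose and HOXC13, HOXD3, HOXD10 and HOXD13 fell, where 26.9% of all genes were called higher and 26.9% lower. The largest increase was that of HOXB7 with an rlog difference of 0.35 (standard error 0.026, adjusted p = 2.82e-13 from limma). HOXA13 followed with 0.31 (standard error 0.049, adjusted p = 2.14e-06 from limma), HOXC4 with 0.26 (standard error 0.030, adjusted p = 6.12e-09 from limma) and HOXB2 with 0.16 (standard error 0.028, adjusted p = 6.45e-06 from limma). HOXC13 fell by 0.35 on the log2 scale (standard error 0.040, adjusted p = 3.36e-09 from limma). The HOXD genes fell by less, HOXD3 with -0.20 (standard error 0.043, adjusted p = 2.00e-04 from limma), HOXD10 with -0.15 (standard error 0.052, adjusted p = 1.59e-02 from limma) and HOXD13 with -0.14 (standard error 0.042, adjusted p = 6.71e-03 from limma). In each of the 8 genes the 3 libraries labelled KD lay beyond all 3 PAR libraries. The groups were also apart, without a call, in HOXA9, HOXA11 and HOXB13, so that 11 of 21 HOX genes (52.4%) and 59.2% of all genes had no overlap. The call of HOXD10 was lost without PAR replicate 3 (rlog difference -0.12, adjusted p = 9.00e-02 from limma) and without KD replicate 3 (-0.11, adjusted p = 9.67e-02 from limma).

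The median absolute rlog difference between the libraries labelled KD and PAR was 0.060 for the HOX genes and 0.081 for all genes. When only expressed genes were counted, 8 of 16 HOX genes (50%) and 71.7% of 14000 genes were called. Of the 5 HOX genes under that level 0 were called by limma, with 0 at an unadjusted p under 0.05, where 23.4% of 8290 genes under it were called. By cluster, the called HOXB genes were higher and the called HOXD genes lower in the libraries labelled KD, while HOXC held a called gene in each direction at opposite ends of the cluster.

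Between the libraries labelled OE and PAR, 4 of the 21 HOX genes were called (19.0%), against 34.8% of all genes. HOXA11, HOXA13 and HOXB7 rose and HOXA2 fell, where 16.9% of all genes were called higher and 18% lower. The rlog difference of HOXA13 was 0.25 (standard error 0.049, adjusted p = 9.64e-05 from limma) and that of HOXB7 was 0.16 (standard error 0.026, adjusted p = 6.37e-06 from limma). HOXA11 had 0.13 (standard error 0.045, adjusted p = 1.93e-02 from limma) and HOXA2 had -0.14 (standard error 0.047, adjusted p = 1.72e-02 from limma). In these 4 genes and in HOXC11, which was not called, the libraries labelled OE lay beyond all PAR libraries (23.8% of HOX genes and 43.2% of all genes).

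The HOXA2 and HOXA11 calls were lost under some alternatives, with the direction kept. HOXA11 lost its call when PAR replicate 2 was left out (0.11, adjusted p = 9.54e-02 from limma), when OE replicate 1 was left out (0.12, adjusted p = 8.11e-02 from limma) and after the median difference of each 20-Mb block of the genome was removed (0.11, adjusted p = 5.18e-02 from limma). For HOXA2 the libraries were PAR replicate 3 (-0.10 when left out, adjusted p = 1.27e-01 from limma) and OE replicate 1 (-0.13, adjusted p = 6.41e-02 from limma). The median absolute rlog difference between the libraries labelled OE and PAR was 0.052 for the HOX genes and 0.048 for all genes. Among expressed genes it was 0.071 for the HOX genes and 0.075 for all genes. Of these, 4 of 16 HOX genes (25%) and 50.3% of 14000 genes were called. None of the 6 HOXD and 5 HOXC genes was called in this comparison by limma. Some were called under alternatives, HOXC11 without the variance trend, with 20-Mb medians removed and without PAR replicate 2, and HOXD3 without PAR replicate 2 or OE replicate 3. HOXD10 was called without OE replicate 1 and HOXD13 without OE replicate 3. At an unadjusted p under 0.05 HOXC11 (0.096) and HOXD3 (0.10) passed.

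**Figure D4:**
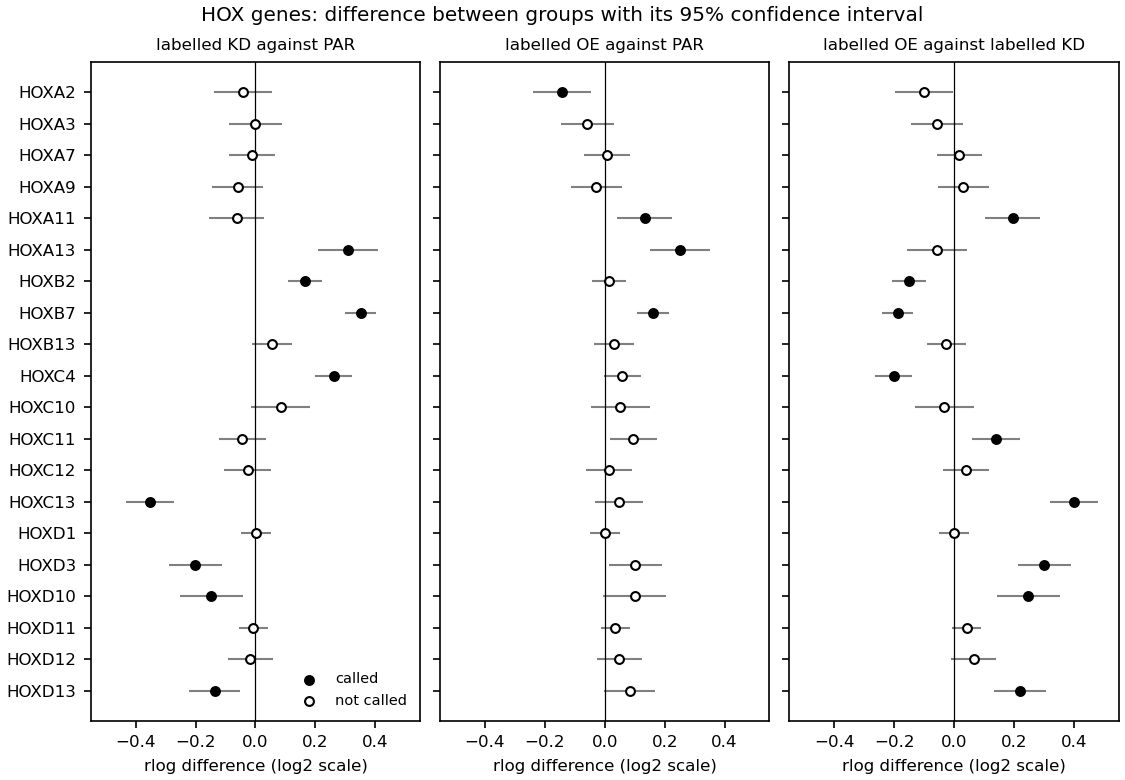
rlog difference (log2 scale) of 20 HOX genes between groups, with bars for the 95% confidence interval from limma and filled points for genes called at an adjusted p under 0.05. Each difference is the first group named minus the second. The called differences lie between -0.35 and 0.40.

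The libraries labelled OE and KD were also compared directly, since a gene called in 1 comparison with PAR and not in the other is not shown to differ between them. Of the 21 HOX genes 9 were called (42.9%), against 47.3% of all genes. HOXA11, HOXC11, HOXC13, HOXD3, HOXD10 and HOXD13 were higher in the libraries labelled OE and HOXB2, HOXB7 and HOXC4 lower, where 23.5% of all genes were called higher and 23.8% lower. HOXC13 had the largest rlog difference, 0.40 (standard error 0.040, adjusted p = 2.95e-10 from limma), followed by HOXD3 with 0.30 (standard error 0.043, adjusted p = 5.43e-07 from limma) and HOXD10 with 0.25 (standard error 0.052, adjusted p = 1.51e-04 from limma). HOXD13 had 0.22 (standard error 0.042, adjusted p = 5.13e-05 from limma), HOXA11 had 0.20 (standard error 0.045, adjusted p = 4.77e-04 from limma) and HOXC11 had 0.14 (standard error 0.039, adjusted p = 2.89e-03 from limma). The decreases were -0.20 for HOXC4 (standard error 0.030, adjusted p = 1.03e-06 from limma), -0.19 for HOXB7 (standard error 0.026, adjusted p = 2.74e-07 from limma) and -0.15 for HOXB2 (standard error 0.028, adjusted p = 2.99e-05 from limma). In each of these 9 genes, and without a call in HOXA2, HOXA13 and HOXD12, the 3 libraries of 1 group lay beyond those of the other (57.1% of HOX genes and 54.1% of all genes). HOXA2 was also called in this comparison without the variance trend and with 20-Mb medians removed.

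The comparisons with PAR share the same 3 PAR libraries, so the values of a gene in them are not independent. HOXA13 had rlog differences of 0.31 in the libraries labelled KD and 0.25 in those labelled OE, and the direct difference of -0.057 was not called (adjusted p = 3.70e-01 from limma, 95% confidence interval -0.16 to 0.043). For HOXB7 the values were 0.35 and 0.16, and the direct difference was called. For HOXC13 they were -0.35 and 0.048, and for HOXD3 -0.20 and 0.10. With an absolute rlog difference above 0.5 required, 0 of the 21 HOX genes passed in each of the 3 comparisons by limma, where 4.98% of all genes had such a difference between KD and PAR, 0.90% between OE and PAR and 3.56% between OE and KD.

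Noncoding RNAs of the HOX clusters were described next, because the library kit does not mark strand. Reads from exonic bases that a gene shares with an antisense partner cannot be told apart. Of 19 listed RNAs 11 had values and 7 reached a mean rlog of 5, led by HAGLR, which lies antisense beside HOXD1 and HOXD3. Of the 11, 4 rose and 2 fell in KD, and 5 rose and 1 fell in OE, 54.5% in each, against 53.7% and 34.8% of all genes. HAGLR had levels of 9.14, 9.06 and 9.15 in PAR, 8.83, 8.72 and 8.84 in the libraries labelled KD and 9.28, 9.20 and 9.22 in those labelled OE. It fell by 0.32 in KD (standard error 0.036, adjusted p = 3.65e-09 from limma) and rose in OE with 0.12 (adjusted p = 8.27e-03 from limma). The KD value stands beside -0.20 for HOXD3, of whose exonic bases 14.1% are shared with 3 genes on the other strand.

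HOXC13-AS, antisense beside HOXC13, had levels of 5.96, 5.97 and 6.05 in PAR, 5.60, 5.62 and 5.49 in the libraries labelled KD and 5.93, 5.96 and 5.86 in those labelled OE. It fell with an rlog difference of -0.42 in KD (standard error 0.049, adjusted p = 6.31e-09 from limma), beside -0.35 for HOXC13. HOXB-AS1, from the anterior part of the HOXB cluster, had levels of 8.43, 8.43 and 8.26 in PAR, 8.84, 8.75 and 8.78 in the libraries labelled KD and 8.61, 8.62 and 8.55 in those labelled OE. Its increase was 0.42 in KD (adjusted p = 1.69e-10 from limma, standard error 0.041) and 0.22 in OE (adjusted p = 5.67e-05 from limma, with the same standard error). HAGLR and HOXD3, HOXC13-AS and HOXC13, and HOXB-AS1 and HOXB2 were called in the same direction in KD, while HOXD1, also beside HAGLR, was not called (0.0026). In OE HAGLR and HOXB-AS1 were called higher, and HOXD3 and HOXB2 (0.014) were not called. An antisense gene shares 7.30% of the exonic bases of HOXC13, and another 3.54% of those of HOXB2.

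HOTAIR, the noncoding RNA between HOXC11 and HOXC12, rose in both comparisons with PAR, by 0.23 in KD (adjusted p = 8.13e-05 from limma) and 0.23 in OE (adjusted p = 2.75e-04 from limma), at a PAR mean of 7.57. HOXC11 (-0.0445) and HOXC12 (-0.026), on either side of HOTAIR, were not called in KD. HOTAIRM1, from the anterior part of the HOXA cluster, rose by 0.18 in KD (adjusted p = 3.50e-04 from limma) and fell by 0.12 in OE (adjusted p = 1.72e-02 from limma). HOXA2, from the same part, was not called in KD (-0.043) and was called lower in OE (-0.14). HOTTIP, from the HOXA13 end of its cluster, rose by 0.075 and 0.084 from a PAR mean of 2.02. The remaining RNAs with values, HOXA-AS3, HOXA11-AS, HOXB-AS3, HOXC-AS3 and HOXD-AS2, had PAR means of 2.43, 3.51, 1.48, 5.78 and 5.79. Of these HOXA11-AS alone was called, higher in OE (0.097), as was HOXA11 (0.13), 27.2% of whose exonic bases are shared with 1 antisense gene.

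The TALE homeodomain cofactors of HOX proteins were all present, with 9 of 9 above a mean rlog of 5. PBX2 was the most abundant, at 11.03, 11.06 and 10.97 in PAR, 11.40, 11.39 and 11.41 in the libraries labelled KD and 11.17, 11.20 and 11.16 in those labelled OE. Both engineered groups lay above PAR, and the rlog differences were 0.38 in KD (adjusted p = 9.35e-16 from limma) and 0.16 in OE (adjusted p = 9.00e-07 from limma).

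MEIS3 fell with -0.24 in KD (adjusted p = 7.79e-07 from limma) and rose with 0.36 in OE (adjusted p = 7.48e-10 from limma). MEIS2 rose with 0.21 in KD and 0.12 in OE, and PKNOX2 fell with -0.15 and -0.18. Of the 9 cofactors, 2 were called higher and 3 lower in KD, and 4 higher and 1 lower in OE. That is 55.6% in each, against 71.7% and 50.3% of all genes with a level of 5 or more. PBX3, PBX4, MEIS1 and PKNOX1 were not called in either comparison with PAR.

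Polycomb complexes hold HOX genes silent, and all 29 listed members were above a mean rlog of 5, led by PHF19. Of these 11 rose and 5 fell in KD (55.2% called, against 71.7% of all genes with a mean level of 5 or more), with a median rlog difference of 0.022 over the list against -0.0005 over all genes. The largest were PHC2 (0.45), PCGF6 (-0.39), PCGF2 (0.34) and PHF1 (0.24). The methyltransferase EZH2, the catalytic subunit of the complex that marks silent HOX genes, had -0.025 in KD (adjusted p = 2.95e-01 from limma) and -0.037 in OE (adjusted p = 1.45e-01 from limma). In OE 4 members rose and 4 fell (27.6%, against 50.3% of such genes), with EED (-0.13), CBX7 (-0.13), EZH1 (0.12) and PHC2 (0.11) the largest.

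Trithorax and MLL complex genes keep HOX genes active, and all 20 were above 5, led by KMT2D. In KD 11 of them rose and 2 fell, and in OE 6 rose and 6 fell, which is 65% and 60% called, against 71.7% and 50.3% of all genes at that level. AFF1, a partner of MLL in transcription elongation, had levels of 9.16, 9.18 and 9.20 in PAR, 9.92, 9.98 and 9.94 in the libraries labelled KD and 9.20, 9.16 and 9.16 in those labelled OE. It rose with 0.77 in KD (standard error 0.029, adjusted p = 8.78e-21 from limma). WDR5, a core subunit of the MLL methyltransferases, fell with -0.45 in KD (adjusted p = 4.06e-19 from limma) and -0.17 in OE (adjusted p = 1.43e-08 from limma). PSIP1 rose with 0.30 and KMT2A with 0.21 in KD, and in OE KMT2D (-0.14), ELL (-0.14, with overlap of the groups) and DOT1L (-0.14) fell.

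Retinoic acid induces anterior HOX genes through its nuclear receptors, and 14 of 18 listed genes of this pathway had values. Of the 14, 7 rose and 6 fell in KD (92.9% called), and 6 rose and 4 fell in OE (71.4%). At 12 of the 14 genes the level was 5 or more, where 71.7% and 50.3% of all genes were called. CYP26B1, the enzyme that degrades retinoic acid, had levels of 7.31, 7.38 and 7.49 in PAR, 6.25, 6.19 and 6.24 in the libraries labelled KD and 7.75, 7.70 and 7.87 in those labelled OE. Without overlap between the groups, it fell with -1.17 in KD (adjusted p = 1.01e-19 from limma) and rose with 0.38 in OE (adjusted p = 1.16e-07 from limma). The receptor gene RARB, itself induced by retinoic acid, fell with -0.25 in KD and rose with 0.58 in OE (adjusted p = 1.32e-07 and 5.89e-15 from limma). RXRA, the common partner of the receptors, fell with -0.87 in KD and -0.17 in OE, while RXRG rose with 0.34 and 0.17. STRA6, the retinol importer and most abundant of the list, rose with 0.26 and 0.24, and the retinal reductase DHRS3 with 0.30 and 0.34.

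Of the CDX, ParaHox and EVX homeobox genes, relatives that include the caudal regulators of posterior HOX genes, 2 of 8 had values. EVX2, the gene beside HOXD13, was at a PAR mean of 0.70 and PDX1 at 0.63. PDX1 was called higher in OE with 0.047 (adjusted p = 1.35e-02 from limma), at a level where the values say little. Of a list of forebrain and anterior homeobox genes, 10 of 16 had values, of which 6 were above 5. DLX1 was the most abundant, and DLX2 fell with -0.73 in KD (adjusted p = 3.36e-17 from limma) and -0.24 in OE (adjusted p = 6.60e-06 from limma). EN2, a gene of the midbrain and hindbrain border, had a PAR mean of 10.38 and fell with -0.26 in KD and -0.23 in OE, whereas EN1 rose with 0.35 in KD. DLX1 fell in KD (-0.20), and in OE HESX1 rose (0.19) and the weakly expressed DLX5 fell (-0.10). HOX genes and genes of this list were thus expressed in the same libraries. Whether the listed genes mark an anterior position in these cells was not tested.

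Expressed genes around the clusters, at the same level of 5, were set beside all HOX genes inside them. Of all expressed genes 71.7% were called in KD and 50.3% in OE. Within 1 Mb of the HOXB cluster, 13 of 27 neighbours rose and 5 fell in KD, with a median rlog difference of 0.078, beside 0.16 for the 3 HOXB genes. Within 10 Mb of it, 76 of 227 rose and 85 fell, with a median of -0.0008. Within 1 Mb of HOXC, 14 of 24 were called higher and 5 lower, with a median of 0.084 beside -0.026 for the 5 HOXC genes. Around HOXA 4 of 10 were called higher and 3 lower (median 0.016, beside -0.015 for the HOXA genes), and around HOXD 1 of 7 was called higher and 0 lower (median -0.021, beside -0.077 for the HOXD genes). CBX5, a heterochromatin protein gene 0.26 Mb from the centre of HOXC, rose with 0.59 in KD (standard error 0.016, adjusted p = 1.12e-24 from limma). Among 18 listed flanking genes with values 13 were called in KD (72.2%), 10 higher and 3 lower, against 53.7% of all genes. Of the 18, 15 were at a level of 5 or more and 3 under it. After CBX5 the largest differences were those of SNX11 (-0.20), ATP5MC2 (0.17), the most abundant of the list, and CALCOCO1 (0.15).

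In OE, 4 of the 7 neighbours of HOXD rose and 0 fell, with a median rlog difference of 0.10 beside 0.066 for the 6 HOXD genes. LNPK, 0.18 Mb from the centre of HOXD on the HOXD13 side, rose with 0.27 (adjusted p = 8.45e-10 from limma), followed among the listed flanking genes by CALCOCO1 (0.17), ATF2 (0.16) and CBX5 (0.11). Around HOXA 6 of 10 were called higher and 3 lower, around HOXB 8 of 27 higher and 1 lower, and around HOXC 11 of 24 higher and 5 lower. The part that neighbouring genes, or a gain or loss of their region, have in the HOX differences was not tested.

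**Figure D5:**
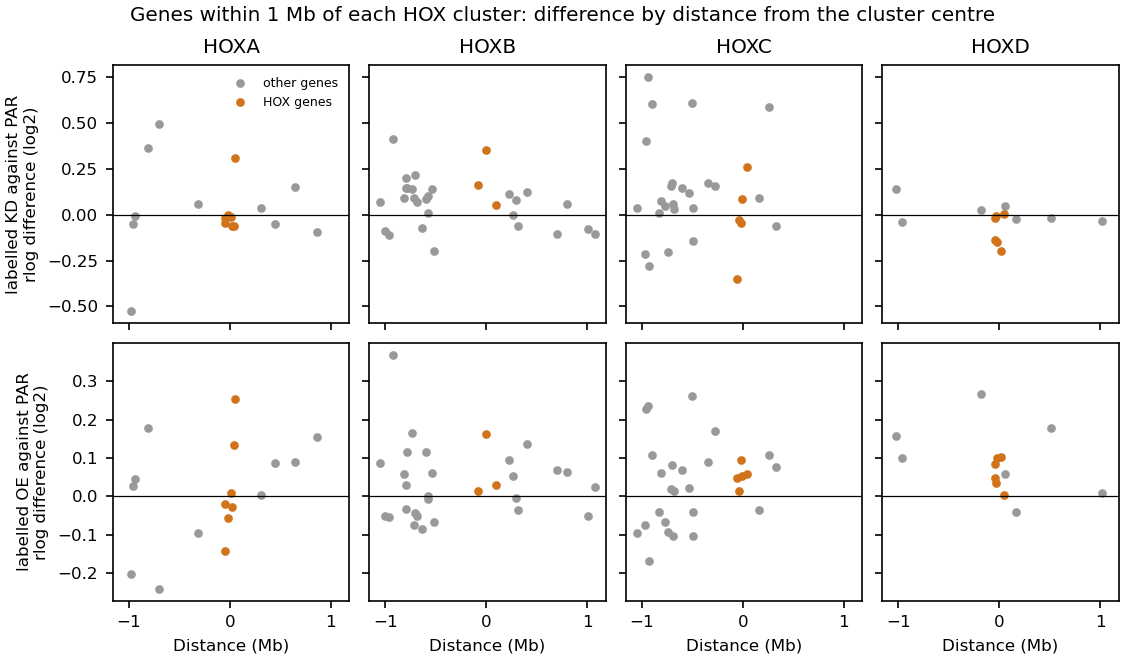
rlog difference (log2 scale) of expressed genes (mean level 5 or more) within 1 Mb of each HOX cluster (grey) and of all HOX genes with values (orange), by distance in Mb of the gene's middle from the cluster centre. The upper row shows the libraries labelled KD minus PAR and the lower row those labelled OE minus PAR, on separate vertical scales. In KD the HOX genes lie on both sides of zero in HOXA, HOXC and HOXD, and neighbours reach 0.75 near HOXC. HOXA13 alone is above zero in HOXA, and HOXD1 alone in HOXD (0.0026).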

How the data were processed

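The 9 libraries of total RNA (Trizol, TruSeq RNA v2 kit) were not stranded, so gene and antisense reads cannot be told apart where exons overlap. The authors processed them with cutadapt, HISAT2 on GRCh38, featureCounts of Subread and DESeq2, as named in the submitters' processing notes. Genes with a total count under 10 had been removed. What was deposited for 22290 genes is on a log2 scale, from the rlog transformation. The table also has 3 empty columns, which were not used. Depth per library is unknown from rlog values.

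From these values, group differences were fitted in all 9 libraries with limma 3.58.1 in R 4.3.3 (linear model by group, empirical Bayes with a variance trend, Benjamini-Hochberg adjustment over all genes, call at 0.05). Symbols, positions and exonic lengths came from GENCODE v44. Promoters came from RefSeq (GRCh38.p14). Levels between genes were compared per kilobase of exon.

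The members and gene lists were chosen with earlier results of these data known. Statistics are given for every HOX gene called in a comparison, up to 6 in each direction, for the highest gene of the HOXB, HOXC and HOXD clusters per kilobase, and for genes whose group means lie on different sides of 5. From each list the most abundant gene and up to 4 called genes with the largest differences in each comparison are named, and other genes named, such as EZH2, CBX5, LNPK or defining markers, were chosen for their known role or position. A HOX gene, a cofactor and a marker that enter the counts are not reported here. Alternatives were a replicate block, no variance trend, quantile normalization, a minimum level of 5, only the groups compared, a difference over 0.5, removal of 20-Mb block medians, each library left out, and other expression levels.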

Additional observations from a re-analysis of the deposited data

How the results depend on the processing

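The required difference over 0.5 and the other expression levels were left out of the following count. Of 315 combinations of a called HOX difference and an alternative, 308 kept their direction and their side of the threshold, 7 lost the call and 0 reversed. With a replicate block, no variance trend or a minimum level, the difference itself cannot change, so its direction was fixed in advance. The same holds for only the groups compared and for leaving out a library of the group not compared. The 7 lost calls were those of HOXD10 in KD and of HOXA2 and HOXA11 in OE, all under alternatives that can change the difference. With an absolute rlog difference above 0.5 required, 0 HOX genes were called in KD, 0 in OE and 0 between OE and KD, since every called difference was smaller. Leaving out each library in turn gave 7 to 9 HOX calls in KD, 3 to 6 in OE and 9 to 9 between OE and KD. Of all 22290 genes, 11106 to 12030, 6857 to 7762 and 9636 to 10575 were then called in these comparisons. The expressed HOX genes numbered 15 to 16 in PAR, 15 to 15 in KD and 16 to 16 in OE. The count of HOX genes in the same state stayed at 20. At a level of 3 it was 21 with 19 genes expressed in each group, at a level of 7 it was 21 with 12, and at a level per kilobase of 5 it was 21 with 12.

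Libraries with the same replicate number did not deviate together: the correlations of their deviations were -0.0458 to 0.1004, so the numbers were not taken to pair the libraries. With the replicate number as a block, 8 of the 21 HOX genes were called in KD, 4 in OE and 9 between OE and KD. Of all 22290 genes, 12015, 7854 and 10623 were called in these comparisons with this block.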
